A study of Mus musculus with 6 samples.

Results

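Alpha globin, the GATA factors Gata1 and Gata2, and their erythroid partners Zfpm1, Klf1, Gfi1b and Epor were examined as a set of 8 genes, chosen by symbol. All 8 were present among the 12161 genes of the deposited expression table. The cells were mouse LSK cells, a bone marrow fraction without lineage markers but with Sca1 and Kit, which holds blood stem cells and early progenitors. They came from C57BL/6 mice, were infected with a retrovirus, cultured for 2 days with stem cell factor, Flt3 ligand, IL-6 and a factor that the protocol spells mL-3, and sorted for GFP before RNA sequencing. The MIG-Hhex group (genotype label Hhex) carried the vector with the homeobox factor Hhex, and the MIG group (genotype label wild-type) carried the empty vector, with 3 libraries each. No erythropoietin is listed in the medium. Since Hhex was driven by a retrovirus, its level is that of forced expression, and vector and endogenous Hhex reads were not separated. The series' design calls the samples biological replicates, and whether a replicate number stands for 1 mouse is not stated. No age of the mice is stated.

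Erythroid cells arise from progenitors in which GATA2, active early, gives way to GATA1, a change known as the GATA switch. GATA1 binds GATA motifs in the DNA, often with FOG1, the protein of Zfpm1, as its cofactor. It works beside KLF1, which binds CACCC boxes of globin and other red cell genes, and GFI1B, a zinc-finger repressor of erythroid and megakaryocytic cells. The erythropoietin receptor, encoded by Epor, keeps late progenitors alive. Alpha globin is one of the end products and pairs with beta globin in haemoglobin. GATA1, GATA2 and FOG1 also act outside the red lineage, in megakaryocytes, mast cells, basophils and eosinophils.

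The upstream sequences of the 8 genes were read from RefSeq windows of GRCm38.p6, the patch release of the build mm10 that the submitters' processing notes name. All 8 genes matched, with 9 windows, since Gata2 has 2 listed starts. The 250 bases before each start were searched on both strands for GATA preceded by A or T and followed by A or G. These 5 stretches are shown because they hold this core of the GATA site, and because those of the alpha globin copies are the same letter for letter. Each stretch is 60 bases long, lies outside annotated exons and is written in the direction of its gene, with the GATA word, or its reverse complement, in capitals.
Hba-a1, chr11:32283449-32283508, plus strand: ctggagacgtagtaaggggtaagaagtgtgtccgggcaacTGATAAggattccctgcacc
Hba-a2, chr11:32296266-32296325, plus strand: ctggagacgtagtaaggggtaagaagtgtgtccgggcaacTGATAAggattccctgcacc
Klf1, chr8:84901862-84901921, plus strand: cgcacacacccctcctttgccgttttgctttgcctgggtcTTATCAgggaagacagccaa
Gfi1b, chr2:28622083-28622142, minus strand: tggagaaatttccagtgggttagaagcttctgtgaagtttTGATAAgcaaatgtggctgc
Epor, chr9:21963611-21963670, minus strand: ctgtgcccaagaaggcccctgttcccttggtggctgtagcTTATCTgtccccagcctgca

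The word began 183 bases before the start in Hba-a1, 186 in Hba-a2, 80 in Klf1, 120 in Gfi1b and 54 in Epor. At least 1 such word lies in 26.5% of the 32851 upstream windows in the table. These letters were not found in the windows of Gata1, Gata2 and Zfpm1. All 250 bases of the second Gata2 window lay in annotated exons. The only windows of Gata1 and Zfpm1 lay inside the spans of their genes, so the sequence before those spans was not searched. A CACCC-like word, CCNCNCCC on either strand, lay in a window of 5 genes: Gata1, Gata2, Zfpm1, Gfi1b and Epor. It lies in 45.9% of all windows. The upstream windows of Hba-a1 and Hba-a2 are offset by 3 bases and had 0 differences over the 247 bases they share.

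The values of the table are on a log2 scale and appear to be set per unit of gene length. The depth of each library is unknown. Hhex was higher in each MIG-Hhex library (7.61 to 9.34) than in each MIG library (5.05 to 5.18). Kit (4.44 to 4.86 over the 6 libraries) and Cd34 (6.82 to 7.50) were present throughout. Ly6a, which encodes Sca1, was 3.55 with MIG-Hhex and 3.18 with MIG in replicate WT3, against 5.89 to 6.25 in the other 4 libraries. Replicate WT3 was also the only one on flow cell C3RJFACXX. Its libraries had more of several red cell genes: Car1, carbonic anhydrase of early red cells, was 5.32 with MIG-Hhex and 5.76 with MIG there, and between 0.43 and 3.43 elsewhere. Rhag, of the Rh membrane complex, was 2.58 and 2.23 there, and at most 0.23 elsewhere. The fit over all genes held a term for the flow cell. Flow cell and replicate WT3 cannot be told apart, and for each gene of the set results are also given without that replicate. The fit with the flow cell term was further repeated 9 times, leaving out 1 of the 6 libraries or 1 of the 3 replicate numbers. Without 1 library of WT3 the flow cell term takes up the other, so the estimate is that without the replicate.

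Of the 8 genes, 5 rose with MIG-Hhex and 0 fell: Hba-a1, Hba-a2, Gata1, Zfpm1 and Klf1 (limma, adjusted p under 0.05 over all genes). Gata2, Gfi1b and Epor did not pass. Over all genes 9.44% were called higher and 8.52% lower, 18% in all. The fitted change was positive for all 8, with a median of 0.88, against −0.02 over all genes. In 4 of the 8, Hba-a1, Hba-a2, Zfpm1 and Gfi1b, each MIG-Hhex library lay above each MIG library, which held for 10.2% of all genes. As many as 7 were higher in the MIG-Hhex library of all 3 pairs, against 27.5% of all genes. In bulk RNA, fewer or more cells of a type cannot be told apart from less or more RNA per cell.

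**Figure D1:**
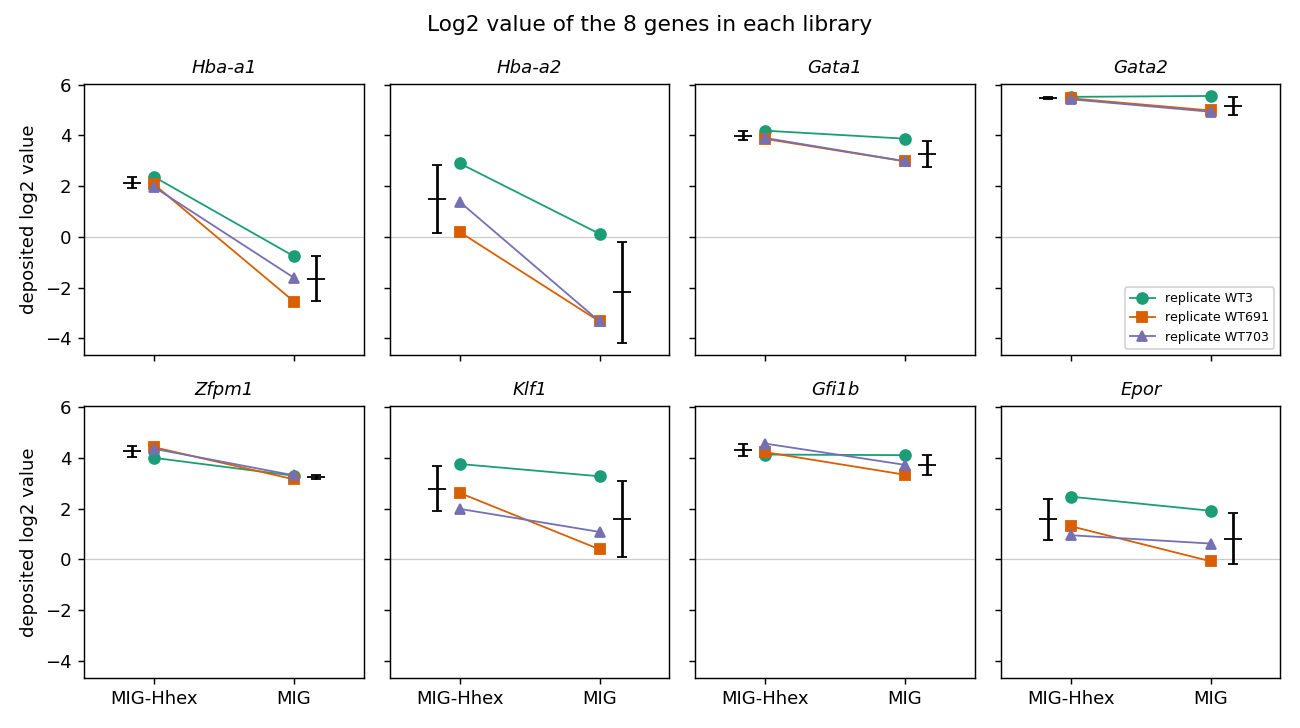
Deposited log2 value (y axis) of each of the 8 genes in the 3 MIG-Hhex libraries (left) and the 3 MIG libraries (right); lines join libraries of a replicate, and black bars beside the points give the mean ± SD. The alpha globin copies differ most between the groups, Gata2 is the highest throughout, and replicate WT3 lies highest for Klf1 and Epor.

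The alpha globin genes showed the largest differences. Hba-a1 had log2 values of 2.36, 2.06 and 1.96 in the MIG-Hhex libraries of replicates WT3, WT691 and WT703, against −0.77, −2.55 and −1.62 in the MIG libraries. The groups did not overlap, and the means were 2.13 ± 0.21 with MIG-Hhex and −1.65 ± 0.89 with MIG (SD, n = 3 each). It rose by 3.77 on the log2 scale, or 13.7-fold (SE 0.32 log2, limma adjusted p = 0.00162). Without replicate WT3 the rise was 4.09 (limma adjusted p = 0.00728). With values below 0 set to 0 it was 2.13 (limma adjusted p = 0.0107), so its size rests on low MIG values, and their log offset is not known.

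Hba-a2, the second copy, had 2.89, 0.19 and 1.38 in the MIG-Hhex libraries of replicates WT3, WT691 and WT703, against 0.12, −3.34 and −3.34 in the MIG libraries. The lowest MIG-Hhex library lay just above the highest MIG library. Hba-a2 rose by 3.67 (SE 0.41, 12.7-fold, limma adjusted p = 0.00344), and by 4.12 without replicate WT3 (limma adjusted p = 0.0132). Its value was exactly equal in the MIG libraries of replicates WT691 and WT703, as for 91 genes in that pair of libraries. With gene length added back, 8 and 19 of 11740 genes lay lower in those libraries. Its call was lost with values below 0 set to 0 (log2 fold change 1.45, limma adjusted p = 0.21) and without the flow cell term (limma adjusted p = 0.179). The size of the Hba-a2 rise thus rests on low MIG values, whose log offset is not known. Without counts it cannot be said whether those libraries held any of its reads, so the 12.7-fold rise is uncertain.

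The copies lie 12820 bases apart, start to start, on chromosome 11, Hba-a1 (Entrez 15122) at 32283672 to 32284486 and Hba-a2 (Entrez 110257) at 32296492 to 32297310. Their coding sequences of 426 bases differ at 1 position. Of the 505 stretches of 50 bases in the longest annotated Hba-a2 transcript, 439 occur letter for letter in that of Hba-a1, which is 86.9%. At 100 bases the share is 74.5%. Hba-a1 minus Hba-a2 ran from −0.53 to 1.87 in MIG-Hhex libraries and from −0.89 to 1.72 in MIG libraries, so the split between the copies varied within both groups and is uncertain. How the counting treated shared reads is not given in the sources used here.

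Summing the copies removes that split, but would not restore shared reads if the counting left them out. The log2 of the summed linear values was 3.65, 2.41 and 2.70 in the MIG-Hhex libraries of replicates WT3, WT691 and WT703, against 0.74, −1.89 and −1.23 in the MIG libraries. Every MIG-Hhex library lay above every MIG library, and the sum rose by 3.71 (SE 0.30, limma adjusted p = 0.00146). Leaving out any 1 library gave rises of 3.41 to 4.12 (limma adjusted p at most 0.0105). Summing was chosen after the values were seen.

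Beta globin, the partner chain of haemoglobin, is represented by Hbb-b1 and Hbb-bs, which are close copies and may likewise share reads. Hbb-b1 had 2.88, 2.67 and 3.99 in the MIG-Hhex libraries, against 3.06, 3.01 and 4.23 in the MIG libraries, in the order of replicates WT3, WT691 and WT703. It was lower with MIG-Hhex in each pair, and its log2 fold change was −0.26 (limma adjusted p = 0.696). With the replicate number as a block it passed (limma adjusted p = 0.0476), while it turned positive without the MIG-Hhex library of WT691 or the MIG library of WT703. Hbb-bs had a log2 fold change of 0.01 (limma adjusted p = 0.989) and also changed sign with the settings. Alpha sum minus beta sum was 0.54, −0.56 and −1.43 in MIG-Hhex libraries, against −2.46, −5.09 and −5.71 in MIG libraries. By the deposited values, alpha thus lay far below beta globin in MIG libraries, and the sums lay much closer to each other in MIG-Hhex libraries. How reads shared between copies were counted is not known, and the MIG alpha values were low. The amounts of alpha and beta globin message therefore cannot be compared from these values. Of 13 listed globin and chaperone genes, 4 were in the table, so the alpha-globin chaperone Ahsp and the embryonic globins were not analysed here.

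**Figure D2:**
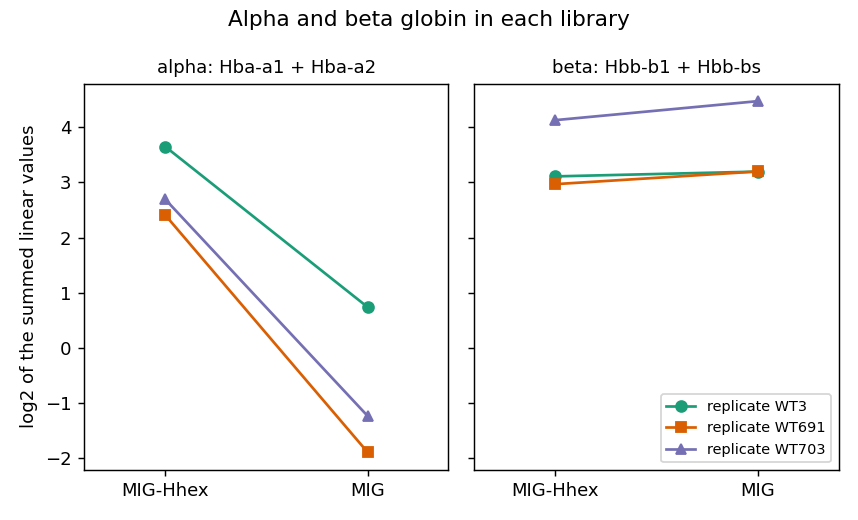
Log2 of the summed linear values (y axis) of the 2 alpha globin genes (left panel) and the 2 beta globin genes (right panel) in MIG-Hhex and MIG libraries; lines join libraries of a replicate. Alpha globin is higher with MIG-Hhex in all 3 replicates, at 2.41 to 3.65 against −1.89 to 0.74, while beta globin lies at 2.97 to 4.13 with MIG-Hhex and 3.20 to 4.47 with MIG.

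RefSeq lists 13 genes within 100 kb of the alpha globin copies, themselves included, and 7 of them were measured. Of the 5 neighbours among these, Mpg, which encodes a DNA repair glycosylase, rose by 0.43 (SE 0.09, limma adjusted p = 0.0234). Mpg overlaps its neighbour Nprl3, and without known strandedness their reads may be mixed. That call was lost in 8 of 9 runs without a library or replicate number. The other 4 did not pass, with log2 fold changes of −0.06 to 1.32.

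Gata1, the central factor of red cell maturation, had log2 values of 4.18, 3.86 and 3.89 in the MIG-Hhex libraries of replicates WT3, WT691 and WT703, against 3.87, 2.97 and 2.98 in the MIG libraries. The groups overlapped, because the MIG library of WT3 lay level with the MIG-Hhex libraries of WT691 and WT703. Gata1 rose by 0.71 (SE 0.12, 1.63-fold, limma adjusted p = 0.0141), by 0.32 in the pair of WT3, 0.89 in that of WT691 and 0.91 in that of WT703. Without replicate WT3 the rise was 0.90 (limma adjusted p = 0.0077). With values below 0 set to 0 the call was lost (limma adjusted p = 0.0707), although no Gata1 value lay below 0 and its log2 fold change stayed at 0.71. Only the variance trend and the adjustment, which draw on all genes, differed there. The call was also lost without the flow cell term (limma adjusted p = 0.271) and in 4 of 9 left-out runs. Those were the runs without the MIG-Hhex library of WT691 (0.0628), the MIG library of WT703 (0.0574), replicate WT691 (0.0675) and replicate WT703 (0.10).

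Gata2, which acts in stem cells and early progenitors, had 5.51, 5.46 and 5.42 in the MIG-Hhex libraries, against 5.55, 4.98 and 4.93 in the MIG libraries, in the same order of replicates. The MIG library of WT3 was thus the highest of the 6. The log2 fold change of 0.31 did not pass (SE 0.11, limma adjusted p = 0.0935). Without replicate WT3 it was 0.48 and passed (limma adjusted p = 0.016). Gata1 minus Gata2 was −1.49 ± 0.14 with MIG-Hhex and −1.88 ± 0.17 with MIG (SD, n = 3 each). It was larger with MIG-Hhex by 0.35, 0.41 and 0.42 in the pairs of WT3, WT691 and WT703, and Gata2 stayed above Gata1 in all 6 libraries.

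Zfpm1, whose product FOG1 is the GATA cofactor, rose in every pair. Its values were 4.00, 4.41 and 4.35 in the MIG-Hhex libraries of replicates WT3, WT691 and WT703, against 3.29, 3.15 and 3.31 in the MIG libraries. The groups did not overlap, and the MIG libraries lay close together. Zfpm1 rose by 1.0 (SE 0.11, 2.01-fold, limma adjusted p = 0.00314), and by 1.16 without replicate WT3. It passed under each alternative run, including that without the flow cell term (limma adjusted p = 0.0292).

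Klf1 encodes the CACCC-box activator of globin genes. Its log2 values were 3.75, 2.61 and 1.99 in the MIG-Hhex libraries, against 3.27, 0.39 and 1.08 in the MIG libraries, in the same order. The MIG library of WT3 exceeded the MIG-Hhex libraries of the other replicates, so the groups overlapped, while each pair showed a rise. Klf1 rose by 1.21 (SE 0.30, 2.31-fold, limma adjusted p = 0.0399), with 0.49, 2.22 and 0.91 in the pairs of WT3, WT691 and WT703. Without replicate WT3 the rise was 1.57 (limma adjusted p = 0.0471). The result lies near the threshold: 5 of 9 left-out runs lost it (limma adjusted p up to 0.131), and the fit without the flow cell term gave 0.583. The call was also lost with values below 0 set to 0 (limma adjusted p = 0.14) and without the variance trend (0.0944). No Klf1 value lay below 0, so with that floor its log2 fold change stayed at 1.21. The left-out runs that lost the call were those without a single library of WT691 or WT703, from either group, or without replicate WT703.

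Gfi1b, the repressor, had 4.13, 4.22 and 4.56 in the MIG-Hhex libraries of replicates WT3, WT691 and WT703, against 4.1, 3.33 and 3.72 in the MIG libraries. The groups were separated by a narrow margin, and the WT3 pair differed by 0.02. Its log2 fold change of 0.58 did not pass (SE 0.20, limma adjusted p = 0.0937), and without replicate WT3 it was 0.86 and passed (0.0458). Epor, the erythropoietin receptor, had 2.47, 1.30 and 0.95 with MIG-Hhex, against 1.91, −0.08 and 0.62 with MIG. It was higher with MIG-Hhex in each pair, by 0.56, 1.38 and 0.33, yet did not pass (log2 fold change 0.76, SE 0.22, limma adjusted p = 0.0618). Without replicate WT3 the log2 fold change was 0.86 and did not pass either (limma adjusted p = 0.146). No alternative brought Epor past the threshold.

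**Figure D3:**
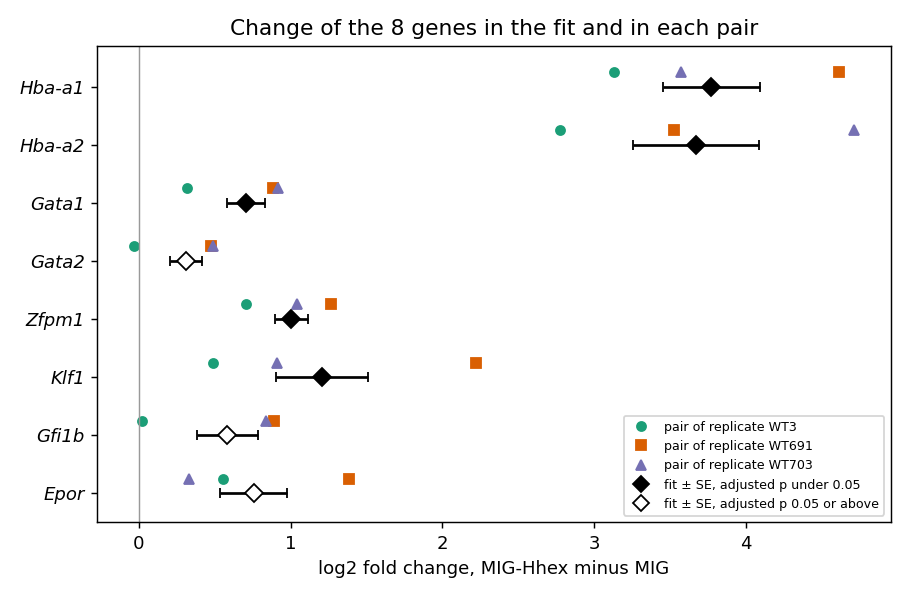
Log2 fold change, MIG-Hhex minus MIG (x axis), of the 8 genes. Diamonds give the fit ± SE, filled where the adjusted p was under 0.05, and coloured symbols give the difference in each replicate pair. The alpha globin genes lie at 3.67 and 3.77, the other genes between 0.31 and 1.21, and the WT3 pair lies lowest for each gene except Epor.

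By level on this length-based log2 scale, Gata2 came first in both groups, at 5.46 ± 0.05 with MIG-Hhex and 5.15 ± 0.35 with MIG (SD, n = 3 each). In MIG-Hhex libraries Gfi1b (4.30 ± 0.23), Zfpm1 (4.25 ± 0.23) and Gata1 (3.98 ± 0.18) followed, below Gata2 and overlapping with each other. Next, all below Gata1, came Klf1 (2.78 ± 0.90), Hba-a1 (2.13 ± 0.21), Epor (1.57 ± 0.79) and Hba-a2 (1.49 ± 1.36), each overlapping with its neighbour in the order. In MIG libraries the order was Gfi1b (3.72 ± 0.39), Gata1 (3.27 ± 0.51), Zfpm1 (3.25 ± 0.09), Klf1 (1.58 ± 1.5), Epor (0.82 ± 1.01), Hba-a1 (−1.65 ± 0.89) and Hba-a2 (−2.19 ± 1.99). There, Gata2 lay apart from Gfi1b and Epor apart from Hba-a1, while the other neighbours overlapped. Among all genes of a library, Hba-a1 stood between percentiles 27.5 and 33.0 with MIG-Hhex and between 2.25 and 8.63 with MIG. Gata2 stood between percentiles 80.7 and 81.3 with MIG-Hhex and between 73.5 and 80.8 with MIG.

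The genes whose 6 values ran most like each member were named by Pearson's correlation, as a description over 6 libraries that share groups and flow cells. For Gata1 they were Fbxw4 (0.996), Pitpna (0.994) and Chil1 (0.993). For Zfpm1 they were Nacc2, Reep6 and Hes1 (each 0.997), for Hba-a1 Lmf2 (0.997), Aldh2 (0.995) and Hdac10 (0.992), and for Hba-a2 Gclm (0.996), Ctdsp1 and Nfe2 (both 0.991). Klf1 was nearest to Apoa1bp (0.995), Aes (0.993) and Hmg20b (0.991), and Gata2 to Ralgps2 (0.994), Clic1 (0.99) and Amigo2 (0.988). Epor ran with Aldoart1 (0.997), Abhd14b (0.994) and Apoa1bp (0.993), and Gfi1b with Pdgfb (0.984), Dynll2 (0.971) and Acat1 (0.969). Among the members, Klf1 and Epor ran closest (0.986), and Zfpm1 and Epor least alike (0.357).

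The partners with which GATA factors assemble moved in both directions. Of 17 measured, 4 rose and 2 fell, a share of 35.3% called against 18% over all genes, and the median log2 fold change was 0.13. Cbfa2t3, the corepressor ETO2 of the TAL1 complex, rose by 0.95 (SE 0.14, limma adjusted p = 0.00748). Runx1, a master factor of blood formation, rose by 0.75 (0.00937), and Nfe2, an activator in megakaryocytes and red cells, by 0.40 (0.00862). Each of these calls was lost in 1 of 9 left-out runs. Those of Cbfa2t3 and Runx1 were also lost with values below 0 set to 0 (limma adjusted p = 0.0532 and 0.0594), though neither gene had values below 0. Ikzf1 also rose, by 0.29, while Lyl1 and Tcf12 fell by 0.29 and 0.31 (limma adjusted p = 0.0137 and 0.0389). Ikzf1, Lyl1 and Tcf12 were named after their values were seen. Tal1, the core helix-loop-helix partner of GATA1, had −0.10 and did not pass (0.463). Of 19 corepressor genes that FOG1 and GFI1B recruit, 2 rose, Gse1 by 0.66 and Mta1 by 0.22, and 17 did not pass, among them Rcor1 at 0.32. The share called was 10.5%, below the 18% over all genes. The calls of Gse1 and Mta1 were lost in 6 and 9 of the 9 left-out runs.

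Of 17 measured genes listed under erythropoietin receptor signalling, 8 rose and 1 fell, and the median log2 fold change was 0.35. The share called was 52.9%, against 18% over all genes. Genes of this list serve other cytokine receptors as well, including those of IL-3. Csf2rb2, the IL-3-specific beta chain of the mouse, rose by 1.23 (SE 0.18, 2.35-fold, limma adjusted p = 0.0085), and Csf2rb, the shared beta chain, by 0.62 (0.0137). Both are close paralogs, so reads could be split between them and the separate values are uncertain. The feedback genes Sh2b3, an adaptor that restrains JAK2, and Cish rose by 0.45 and 0.63, and the survival gene Bcl2l1 by 0.41. Stat5b, the transducer, was the single gene called lower, by 0.22 on the log2 scale, while 12 of the 17 had a positive change. Except for Csf2rb2, each of these named calls was lost in 4 to 9 of those repeats, where the adjusted p of limma reached 0.184. That of Csf2rb2 was lost with values below 0 set to 0 (limma adjusted p = 0.0621), though none of its values lay below 0. Cish and Bcl2l1 were named after their values were seen.

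Of 14 measured genes of haem synthesis, 1 rose and 1 fell, a share of 14.3% called against 18% over all genes. Ppox, a late enzyme of the pathway, rose by 0.39 and Abcb10, a mitochondrial transporter, fell by 0.34, and both calls were lost in most left-out runs. Cpox had −0.20 and did not pass (limma adjusted p = 0.0797, but 0.0389 when blocked by replicate). Of 11 iron genes, Tfr2, a partner of the erythropoietin receptor, rose by 0.99 (SE 0.15, limma adjusted p = 0.00888). That call was lost in 1 of 9 left-out runs. It was also lost with values below 0 set to 0 (limma adjusted p = 0.0554), though no Tfr2 value lay below 0. Tfrc, the main transferrin receptor of red cell precursors, fell by 0.29 and Ftl1, ferritin light chain, by 0.27, and 8 did not pass. The share called of the 11 iron genes was 27.3%. The call of Tfrc was lost with the GC correction and in 5 left-out runs, that of Ftl1 in 8.

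Of 25 measured late red cell genes, 4 rose and 1 fell, a share of 20% called against 18% over all genes, and the median log2 fold change was 0.02. Slc4a1, the band 3 anion exchanger, rose by 3.60 (SE 0.80, limma adjusted p = 0.0276) but lay below 0 in all 6 libraries, between −3.67 and −1.74 with MIG-Hhex and between −6.35 and −5.58 with MIG. Its call was lost in 6 of 9 left-out runs. Aqp1, the red cell water channel, rose by 1.16 (SE 0.18, limma adjusted p = 0.00926), and Blvrb, biliverdin reductase, by 0.51 (0.0101). The calls of Aqp1 and Blvrb were each lost in 1 of 9 left-out runs. That of Aqp1 was also lost with values below 0 set to 0 (limma adjusted p = 0.0584), though no Aqp1 value lay below 0. Tmod1, tropomodulin of the membrane skeleton, rose by 1.19 (0.0451), was lost in all 9 left-out runs and was named after its value was seen. Car1 fell by 1.84 (SE 0.42, limma adjusted p = 0.0308), with 5.32, 0.72 and 0.43 in the MIG-Hhex libraries, against 5.76, 2.80 and 3.43 in the MIG libraries. The fall of Car1 was lost in 6 of 9 left-out runs.

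**Figure D4:**
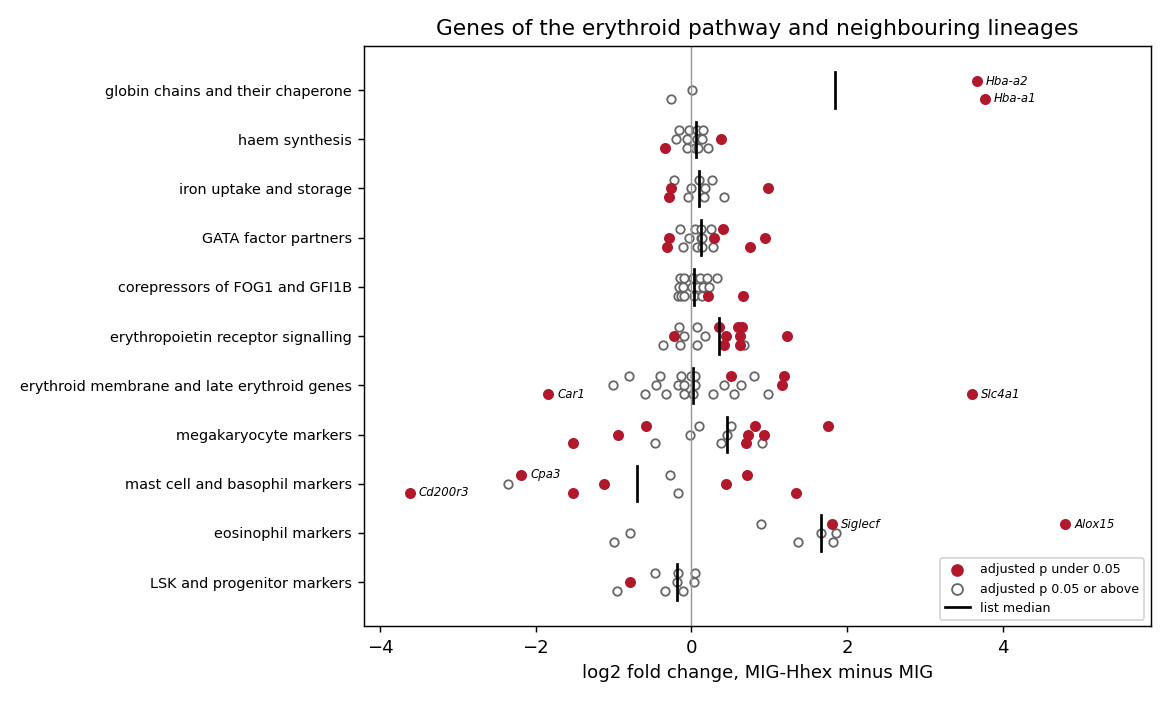
Log2 fold change, MIG-Hhex minus MIG (x axis), of the measured genes of each list (rows); filled points passed the adjusted p of 0.05, open points did not, and bars mark list medians. Alpha globin and Slc4a1 lie near 3.6 to 3.8, while most haem, iron and late red cell genes lie close to 0.

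Markers of other lineages that use GATA factors were called at varying shares, against 18% over all genes. The shares were 53.3% for megakaryocyte, 70% for mast cell and basophil, and 22.2% for eosinophil markers. For stem and progenitor markers the share was 11.1%. Of 15 megakaryocyte markers, 5 rose and 3 fell: Selp (P-selectin) rose by 1.76 and Nbeal2, of platelet granules, by 0.70, while Thbs1 (thrombospondin) fell by 0.58. The summed level of this list was 6.88 to 7.52 with MIG-Hhex and 6.99 to 7.28 with MIG (log2). Of 10 mast cell and basophil markers, 3 rose and 4 fell: Cpa3 (a mast cell protease) fell by 2.19, Mcpt8 (a basophil protease) by 1.12 and Cd200r3 (a receptor of both cell types) by 3.62. The 3 that rose were Hdc by 1.35, Il1rl1 by 0.71 and Slc18a2 by 0.44, named after their values were seen. Cd200r3 was below 0 in each MIG-Hhex library, and with values below 0 set to 0 its change was −0.12 and did not pass. The summed level of the 10 mast cell and basophil markers was 7.40 to 8.20 with MIG-Hhex and 7.68 to 8.79 with MIG. It differed by −0.59, −0.42 and −0.28 in the pairs of WT3, WT691 and WT703. Of 9 eosinophil markers, 2 rose and 0 fell. Alox15 rose by 4.80 and Siglecf by 1.81, while Ear2 had 1.37 and did not pass (limma adjusted p = 0.11, but 0.04995 when blocked by replicate). The call of Siglecf was lost in 1 of 9 left-out runs. Ear2 belongs to a family of near-identical genes, so its value is uncertain. Epx and Prg2, granule proteins of eosinophils, were well above 0 in both libraries of WT3 and WT691, and at −0.79 and 0.54 in the MIG library of WT703; both were named after their values were seen. The eosinophil sum was 5.99 to 6.94 with MIG-Hhex and 3.09 to 6.45 with MIG, lowest in the MIG library of WT703, and differed by 0.49, 1.05 and 2.90 in the same pairs. Of 9 stem and progenitor markers, Meis1 fell by 0.79 and 8 did not pass, among them Cd48 (−0.34, limma adjusted p = 0.00896 when blocked by replicate) and Mecom (−0.95). The call of Meis1 was lost in 3 of 9 left-out runs, on flow cell C5LWPANXX alone and with values below 0 set to 0. No Meis1 value lay below 0, so that floor left its fold change as it was. Rab27b, Pf4, Itgb3, Itga2b, Gp9, Hdc, Il1rl1, Slc18a2, Epx and Prg2 were not followed through the alternative fits. Nor were Ikzf1, Lyl1 and Tcf12 of the GATA factor partners. Of the other genes named from these lists, only Hba-a1, Zfpm1, Alox15 and Siglecf still passed without the flow cell term. The part of these cell types in the changes of Gata1, Zfpm1 and alpha globin was not tested.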

How the data were processed

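RNA of 6 libraries was sequenced, 3 with MIG-Hhex and 3 with MIG. The submitters' processing notes name mm10, edgeR, limma, featureCounts and Subread; versions, strandedness and normalization are not stated. The authors deposited 1 log2 value per gene and library (12161 genes, 60 without a symbol). Library values at the 95th percentile spread over 0.29 as deposited and over 0.08 once log2 exon length was added back (11740 genes with GENCODE vM21 lengths), as values set per length would. Counts cannot be recovered, so depth and counting error are unknown.

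Values were fitted with limma 3.58.1 in R 4.3.3 with terms for flow cell and vector and eBayes with trend. P-values are two-sided, Benjamini-Hochberg adjusted over all genes, with a threshold of 0.05; the code was tested on simulated data. Fold changes are MIG-Hhex minus MIG. Libraries were paired by equal replicate number. Their deviations from the group means correlated (0.742 for WT3, 0.585 for WT691, 0.656 for WT703). The flow cell was not removed first, so the shift of WT3 enters each correlation. The correlations therefore cannot show whether WT691 and WT703 are true pairs.

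Members, lists and alternatives were chosen with earlier results of these data known. Named genes were the members, up to 3 genes of smallest p per list, genes whose call alone went against the other calls of their list (Car1, Stat5b), the 3 nearest patterns, and others said to be named later. Hhex, Kit, Cd34, Ly6a, Rhag, Tal1, Hbb-bs and Mpg were added to show levels or neighbours. Exons of the members overlapped no other gene in GENCODE vM21.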

Additional observations from a re-analysis of the deposited data

Results flagged for a closer look

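Gata2 changed sign between the flow cells. MIG-Hhex minus MIG was −0.04 (−0.0351) in the pair of WT3, on flow cell C3RJFACXX, and 0.478 and 0.491 in the other pairs (WT691 and WT703), both run on flow cell C5LWPANXX. The difference between the flow cells, a test chosen after the values were seen, was 0.52 and did not pass (limma interaction term, adjusted p = 0.928; unadjusted p = 0.00452). Over all genes this term called 0 genes, with 600 at an unadjusted p under 0.05. One flow cell holds a single pair, so its own spread cannot be estimated.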

How the results depend on the processing

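Of the 8 members, 5 were higher and 0 lower in all fits with the replicate block, the GC correction, both together, quantile normalization or median centring. The replicate block (1506 genes higher, 1473 lower) changed no call of a member; of the other named genes it moved those of Hbb-b1, Cpox, Ear2 and Cd48 past the threshold. Against 1148 genes higher and 1036 lower, the fit without the flow cell term gave 119 and 98 (members higher: 2), values below 0 set to 0 gave 539 and 512 (members higher: 2), and flow cell C5LWPANXX alone gave 698 and 519. Without the variance trend 638 genes were lower. Left-out runs gave 355 to 835 genes higher, 270 to 634 lower, and 3 to 7 members higher. Members were at 3 without the MIG-Hhex library of WT691, the MIG library of WT703 or replicate WT703, and at 7 without either library of WT3 or both. The cause was not tested. A mean filter above 0 removes Hba-a2 and leaves 4 members higher, as does the fit without the variance trend, which loses Klf1. Hbb-bs turned to −0.003 (−0.00278) with the GC correction, with or without the block, to −0.0928 with values below 0 set to 0 and to −0.33 on flow cell C5LWPANXX, and ran from −0.36 to 0.57 in left-out runs. Hbb-b1 ran from −0.63 to 0.13. The log offset is unknown, and with values below 0 set to 0 Hba-a2, Slc4a1, Cd200r3 and Tmod1 were among the genes whose calls were lost. Calls of genes without values below 0, such as Gata1, Klf1 and Meis1, were lost there too, with unchanged fold changes.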
